A study of Mus musculus with 16 samples.

Results

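The genes described here are 41 genes of the motile cilia that ciliated cells of the airway epithelium carry. They were matched by symbol or synonym to the annotation of an Affymetrix Mouse 430 2.0 array, and each gene was represented by its probe set, among those with a single symbol, with the highest mean over 16 arrays. A probe set was found for 40 of the 41, out of 18193 genes measured in all; none was found for Sntn. Together the 40 genes have 63 such probe sets. They were listed for what they do in cilia and not for a value on these arrays, but the list was drawn up with earlier results of the arrays known.

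Each array held RNA of 1 left lung of a 23-week-old Balb/c mouse, a strain that responds strongly to inhaled allergen. Before birth the mice had been exposed to filtered air or to SHS, for which sidestream smoke at 10 mg/m3 stood in, for 5 h a day on 7 days a week. All mice of all groups, controls included, were then sensitized with injected OVA, a model allergen, at 19 and 21 weeks and inhaled it as an aerosol every other day in weeks 22 and 23. The 4 groups of 4 mice were air females, SHS females, air males and SHS males. No group without OVA is described here, so each comparison is of SHS against air in lungs that were all challenged with the allergen. Dams and litters are not given in the labels, so p-values measure the spread between these mice, which may include litter mates. Values are log2 expression values, all differences are SHS minus air within a sex, and a level in females is not set against one in males.

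A motile cilium is built on an axoneme, a ring of doublet microtubules around a central pair. Dynein arms on the doublets slide them against each other, radial spokes and the central apparatus regulate that sliding, and tektins and other proteins inside the doublets stiffen them. In the airway, beating cilia of multiciliated cells clear mucus towards the throat; Foxj1, a forkhead transcription factor, switches on the genes for motile cilia, and RFX factors bind the X-box element in many of their promoters.

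Ciliated cells are a small part of the lung. In the whole left lung, the probe sets chosen for most of the 40 genes lay above the middle level of the array. Of the 40 probe sets, 34 had a mean above 7.02, the middle of the means of all probe sets. The 6 below it were those of Spag6 (3.66), Efhc2 (5.93), Ropn1l (6.67), Spag17 (6.69), Ccdc113 (6.71) and Morn5 (6.98). Each of the 40 was chosen as the highest probe set of its gene, which favours a high count. Of the 23 further probe sets of these genes, 19 lay below 7.02. Of 10 markers of ciliated cells, 9 were measured 7 of them among the 40 genes, and all 9 lay above that value, whereas of 8 markers of testis and sperm, the other place where many axonemal genes are active, 1 did. In RNA of a whole lung, fewer ciliated cells and less RNA per ciliated cell cannot be told apart.

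Promoter sequence is shown because the genes varied together from lung to lung, as described further on, and because RFX binding elements are a feature that the choice of genes did not use. Whether the motifs bear on that variation was not tested. RefSeq promoter windows of the assembly GRCm38.p6, from 250 bases before to 50 bases after a transcription start, were found for 35 of the 40 genes. The RFX X-box, searched on both strands, was in a window of 9 of the 35 genes (25.7%) against 1.75% of 27025 genes in the table. The shorter RFX motif GTTGCCA, which can lie within an X-box and was also searched on both strands, was likewise in 9 of 35 (25.7%), against 5.02% of all genes. One or the other was found in 14 genes, and both in 4. TGTTTAC, a core forkhead motif, was found in 2 of 35 genes (5.71%), Ak7 and Mlf1, against 4.05% of all genes. Each match is a description of the letters in the window. The following 60-base windows, read 5′ to 3′ on the strand of the gene, have the motif in capitals; the first 3 hold a whole X-box and were chosen after the search, and the other 3, of genes named further on by rule, hold the shorter motif or its reverse complement TGGCAAC.
Dynlrb2, chr8:116504940-116504999, + strand, X-box starting 51 bases before the start site: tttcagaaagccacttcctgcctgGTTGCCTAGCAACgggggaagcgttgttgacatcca
Hydin, chr8:110266917-110266976, + strand, X-box starting 21 bases before the start site: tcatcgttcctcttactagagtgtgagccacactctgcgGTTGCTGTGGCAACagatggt
Spag16, chr1:69826844-69826903, + strand, X-box starting 103 bases before the start site: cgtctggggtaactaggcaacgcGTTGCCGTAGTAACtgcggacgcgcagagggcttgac
Tekt1, chr11:72361883-72361942, - strand, shorter motif starting 15 bases before the start site: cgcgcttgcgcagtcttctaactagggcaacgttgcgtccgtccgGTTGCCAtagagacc
Iqcg, chr16:33056187-33056246, - strand, shorter motif starting 19 bases before the start site: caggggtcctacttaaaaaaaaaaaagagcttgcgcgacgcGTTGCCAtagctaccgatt
Cdhr3, chr12:33092876-33092935, - strand, reverse complement starting 7 bases before the start site: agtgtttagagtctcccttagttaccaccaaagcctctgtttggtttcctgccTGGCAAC
Ttll9, also named further on by rule, has an X-box of which 3 bases lie past the start site, and its window is not printed. Of the 6 genes that are called in a comparison below, 1, Cdhr3, has either RFX motif in its window.

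Most of the motile cilia genes were slightly lower after SHS in females, the differences in males were smaller and of both signs, and few single genes passed the test in either sex. In females, 35 of the 40 differences were below 0, against 52.8% of all 45037 probe sets, with a median of -0.14 against -0.01 for all probe sets. In males, 25 of the 40 were below 0, against 50.6% of all probe sets, with a median of -0.05. The genes are not 40 independent readings, since they varied together between lungs. No gene reached a 1.5-fold difference in either sex or in their average. A gene is called here when limma's test gave a Benjamini-Hochberg adjusted p under 0.05 over all 45037 probe sets. By that test the SHS effect differed between the sexes in 0 of the 40 genes and 0 of all probe sets. The median of that difference over the genes ran from -0.16 to -0.01 with 1 array left out.

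In females 1 of the 40 genes was called, Ak7, which was lower; 2.87% of all probe sets were called in that comparison, 2.36% as higher and 0.517% as lower. In males 1 of the 40 was called, Morn5, which was higher; 5.18% of all probe sets were called, 3.07% as higher and 2.11% as lower. Averaged over the sexes, 4 genes were lower (Ccdc39, Armc3, Ak7 and Cdhr3) and 2 were higher (Morn5 and Capsl), while 10.3% of all probe sets were called, 6.65% as higher and 3.67% as lower. Within each sex the called share, 2.5%, is near that background or below it. In the average it is 6 of 40 against 10.3%. At an unadjusted p under 0.05, 13 genes differed in females (16.0% of all probe sets), 8 in males (20.2%) and 14 in the average (23.7%). By sign, 23 genes were below 0 in both sexes, 3 were above 0 in both and 14 differed between the sexes. In the average 31 of 40 differences were below 0, against 52.8% of all probe sets, with a median of -0.09.

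**Figure D1:**
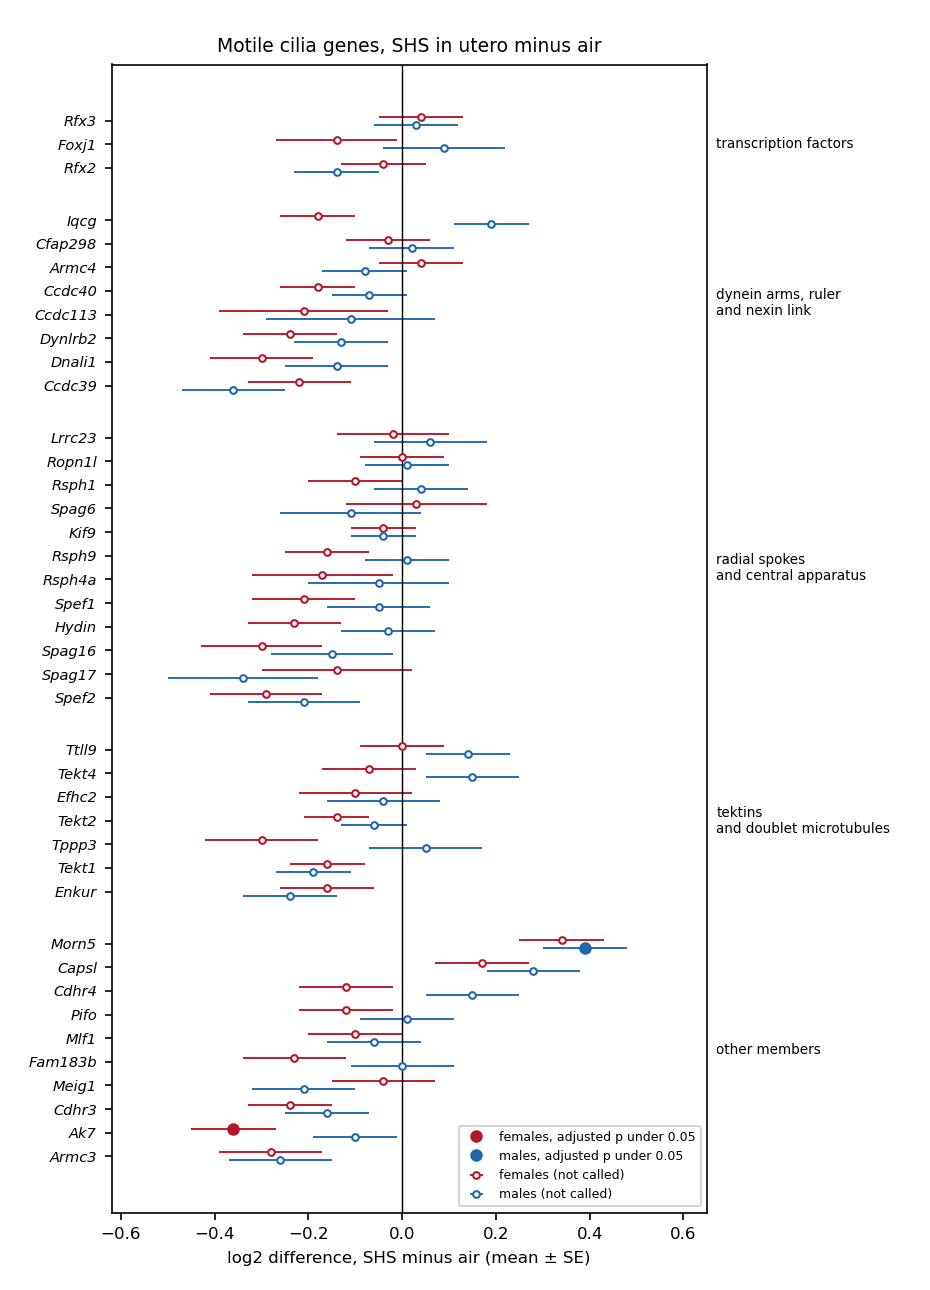
Log2 difference, SHS minus air, of each of the 40 motile cilia genes in females (red) and males (blue), with its standard error from limma, in groups by role. Filled points mark Ak7 in females and Morn5 in males, the only genes with an adjusted p under 0.05 within a sex; most red points lie left of 0, and Morn5 and Capsl lie right of it in both sexes.

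Among the transcription factors, Foxj1 was first looked at in every lung, since it directs the program of motile cilia. Its values were 9.22, 8.98, 8.94 and 9.22 in the air females and 9.21, 8.89, 8.90 and 8.79 in the SHS females. In males they were 8.51, 8.93, 8.96 and 8.70 after air and 8.68, 8.62, 9.0 and 9.18 after SHS. The groups overlapped in both sexes. The difference was -0.14 ± 0.13 (SE, n = 4 per group) in females, adjusted p = 0.658, and 0.09 ± 0.13 in males, adjusted p = 0.753 (limma). Rfx3, a factor that binds X-boxes, read 7.82, 7.84, 7.98 and 8.03 in the air females and 7.93, 7.76, 8.12 and 8.01 in the SHS females, and 8.29, 8.36, 8.20 and 8.15 in the air males against 8.29, 8.29, 8.13 and 8.40 in the SHS males. Its groups overlapped, with differences of 0.04 and 0.03. Rfx2, of the same family, differed by -0.04 in females and -0.14 in males, adjusted p = 0.896 and 0.415.

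The 8 genes of the dynein arms, the molecular ruler and the nexin link had a median difference of -0.20 in females, where 7 of 8 were below 0, and of -0.09 in males, where 6 were. Ccdc39, which with Ccdc40 forms the ruler that spaces dyneins along the doublet, was lower in the average. It read 8.54, 8.41, 8.57 and 8.48 in the air females and 8.39, 7.92, 8.40 and 8.42 in the SHS females, with the second SHS female low and the groups just overlapping. Male lungs read 8.80, 8.89, 9.09 and 8.73 after air and 8.46, 8.42, 8.50 and 8.71 after SHS, and every SHS male lay below every air male. The difference was -0.22 ± 0.11 in females, adjusted p = 0.323, -0.36 ± 0.11 in males, adjusted p = 0.0629, and -0.29 ± 0.08 in the average, adjusted p = 0.0204 (limma). The averaged call held with each of the 16 arrays left out. In males Ccdc39 passed the threshold without SHS male 4 (adjusted p = 0.042) or without SHS female 2 (0.0179), which bears on it only through the shared estimate of spread.

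Other readings bear on how firmly the Ccdc39 value belongs to that gene. Its probe set is of the kind that can pick up more than 1 transcript, and Ccdc39 (chromosome 3, 33810757 to 33844325 in GRCm38.p6) overlaps the neighbouring gene Ttc14 by 4104 bases. Ttc14's own probe set differed by -0.19 in females, by -0.36 in males, adjusted p = 0.0496, and by -0.28 in the average, adjusted p = 0.0193. Whether the array's probes tell their RNA apart was not tested. Fxr1, the neighbour of Ccdc39 on the other side at 175732 bases, differed by 0.01 in the average, adjusted p = 0.903 (limma). A second, dim probe set of Ccdc39 (mean 4.53) was lower in males, with a difference of -0.58 and adjusted p = 0.0101, and another at 3.55 differed by 0.19 (adjusted p = 0.384). Ccdc40, the partner in the ruler, differed by -0.18 in females, adjusted p = 0.251, and by -0.07 in males, adjusted p = 0.687.

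Dnali1, a light chain of inner dynein arms, read 9.26, 9.27, 9.17 and 9.27 in the air females and 9.11, 8.65, 9.06 and 8.94 in the SHS females. Every SHS female lay below every air female. In males the readings were 8.23, 8.34, 8.55 and 8.18 after air and 8.10, 8.10, 8.08 and 8.46 after SHS, which overlapped through SHS male 4. The differences of -0.30 ± 0.11 in females and -0.14 ± 0.11 in males did not pass the test, adjusted p = 0.147 and 0.505. A further probe set of Dnali1 (mean 8.36) differed by -0.16 and -0.10, adjusted p = 0.447 and 0.595 (limma). Dynlrb2, a light chain of the roadblock family, differed by -0.24 in females and -0.13 in males, adjusted p = 0.241 and 0.509. Ccdc113 differed by -0.21 and -0.11, and Cfap298, needed to assemble dynein arms, by -0.03 and 0.02. Of the 3 further probe sets of Cfap298, 1 disagreed, with 0.23 in females, adjusted p = 0.0884, and -0.35 in males, adjusted p = 0.00713. The other two differed by 0.03 and 0.05 in females and by 0.10 and 0.05 in males, with adjusted p of 0.506 or more.

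Armc4, which docks outer dynein arms, was among the few genes not below 0 in females. It read 7.43, 7.63, 7.38 and 7.66 in the air females and 7.68, 7.38, 7.74 and 7.48 in the SHS females. Males read 7.46, 7.62, 7.61 and 7.53 after air and 7.36, 7.61, 7.33 and 7.58 after SHS. All of these overlapped, with differences of 0.04 and -0.08. Iqcg, a part of the nexin-dynein regulatory complex, differed with opposite signs in the sexes. It read 7.40, 7.40, 7.26 and 7.30 in the air females and 7.36, 6.92, 7.17 and 7.17 in the SHS females. The males read 6.79, 6.80, 7.02 and 6.82 after air and 6.97, 7.02, 7.08 and 7.12 after SHS. The SHS females were lower in the main and the SHS males higher, with overlap in both: -0.18 ± 0.08 in females, adjusted p = 0.289, and 0.19 ± 0.08 in males, adjusted p = 0.225. The difference between these effects, -0.37 ± 0.12, had an unadjusted p of 0.00633 and an adjusted p of 0.469.

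The 12 genes of the radial spokes and the central apparatus had medians of -0.15 in females, 11 of 12 below 0, and -0.05 in males, 8 of 12 below 0, and none was called. The spoke-head genes Rsph1, Rsph4a and Rsph9 differed in females by -0.10, -0.17 and -0.16 and in males by 0.04, -0.05 and 0.01. Larger differences were those of the central apparatus in females: Spag16 (-0.30, adjusted p = 0.264), Spef2 (-0.29, adjusted p = 0.249), Hydin (-0.23, adjusted p = 0.259) and Spef1 (-0.21, adjusted p = 0.353). In males the corresponding differences were -0.15, -0.21, -0.03 and -0.05. The further probe sets of these genes, all with means below 7.02, were smaller or of the other sign in females. They differed by -0.01, -0.0 and -0.19 for Spag16, 0.06 and -0.15 for Spef2, 0.01 for Hydin and 0.22 for Spef1. Spag17, also of the central apparatus, differed by -0.14 in females and -0.34 in males, adjusted p = 0.746 and 0.239 (limma). In males it read 7.77 to 8.33 after air and 7.57 to 7.73 after SHS, with no overlap. Its readings in females lay below 7.02, and the sexes are not compared in level. The spoke genes Ropn1l and Lrrc23 and the kinesin Kif9 stayed within 0.06 of 0 in both sexes, and Spag6, near the lowest readings of the array, differed by 0.03 and -0.11.

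The 7 tektin and doublet genes had a median of -0.14 in females, all 7 at or below 0, and of -0.04 in males, 4 of 7 below 0. Tekt1, a filament protein of the doublet, read 8.25, 8.08, 7.92 and 8.05 in the air females and 8.0, 7.80, 7.93 and 7.95 in the SHS females. Male lungs read 7.83, 7.95, 7.91 and 7.77 after air and 7.64, 7.52, 7.68 and 7.85 after SHS. Most SHS lungs lay below most air lungs, with overlap in both sexes, and the averaged difference of -0.17 ± 0.06 had an adjusted p of 0.0718. Enkur, a protein within the doublets, read 8.47, 8.41, 8.28 and 8.49 in the air females and 8.46, 7.94, 8.35 and 8.27 in the SHS females. Its readings in males were 8.44, 8.70, 8.85 and 8.64 after air and 8.33, 8.40, 8.43 and 8.51 after SHS, again lower with overlap, and its averaged difference of -0.20 ± 0.07 had an adjusted p of 0.0921.

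Tppp3, a microtubule-bundling protein, differed by -0.30 in females, adjusted p = 0.207, and by 0.05 in males, adjusted p = 0.877. Without SHS female 4, whose reading was the highest of the SHS females, Tppp3 was called lower in females at -0.42, adjusted p = 0.0186. Tekt2 and Tekt4 differed by -0.14 and -0.07 in females and by -0.06 and 0.15 in males, and Efhc2 by -0.10 and -0.04. Ttll9, an enzyme that adds glutamates to tubulin, read 7.01, 7.38, 7.22 and 7.25 in the air females and 7.03, 7.38, 7.30 and 7.14 in the SHS females, and 7.09, 7.07, 7.23 and 7.31 in the air males against 7.29, 7.42, 7.23 and 7.32 in the SHS males. Those groups overlapped, and the difference in males was 0.14 ± 0.09, adjusted p = 0.421. A dimmer probe set of Ttll9 had a difference of the opposite sign in males, -0.35, adjusted p = 0.0227, and so disagreed with the chosen one. The remaining one differed by -0.07 in females and -0.08 in males, adjusted p = 0.748 and 0.679.

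Ak7, an adenylate kinase of the axoneme, was the only one of the 40 genes called in females. It read 9.84, 10.08, 10.01 and 10.17 in the air females and 9.83, 9.53, 9.65 and 9.64 in the SHS females. Every SHS female lay below every air female, though SHS female 1 and air female 1 were 0.01 apart. Males read 9.75, 9.99, 10.08 and 9.83 after air and 9.82, 9.75, 9.67 and 9.98 after SHS, with overlap. The difference was -0.36 ± 0.09 in females, adjusted p = 0.0438, -0.10 ± 0.09 in males, adjusted p = 0.587, and -0.23 ± 0.07 in the average, adjusted p = 0.0306 (limma). Between the sexes, this effect differed by -0.26 ± 0.13 (females minus males), unadjusted p = 0.0667 and adjusted p = 0.637 (limma).

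The Ak7 call in females did not hold without air female 2, 3 or 4, SHS female 2 or 3, air male 2 or 4, or SHS male 1 or 2, with adjusted p between 0.0511 and 0.14 and the difference between -0.37 and -0.32 in those fits. With the arrays of the females alone its adjusted p was 0.0954. In the average the call was lost in 10 of 16 fits with 1 array left out: air female 2, 3 or 4, air male 2 or 3, SHS female 2 or 3, and SHS male 1, 2 or 3, at adjusted p from 0.0505 to 0.0713.

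Armc3, an armadillo-repeat protein, was lower in the average of the sexes. It read 7.75, 7.66, 7.55 and 7.78 in the air females and 7.60, 7.12, 7.42 and 7.48 in the SHS females, with 1 SHS female above the lowest air female. In males the readings were 7.47, 7.82, 7.93 and 7.58 after air and 7.39, 7.39, 7.44 and 7.52 after SHS, with 1 SHS male above the lowest air male. The difference was -0.28 ± 0.11 in females, -0.26 ± 0.11 in males, adjusted p = 0.183 and 0.171, and -0.27 ± 0.08 in the average, adjusted p = 0.0271 (limma). That call was lost without air female 4, air male 2 or 3, SHS female 2, or SHS male 1 or 2, at adjusted p from 0.0517 to 0.0586. A dimmer probe set of Armc3 (mean 6.67) was not called. It differed by -0.15 in females, -0.20 in males and -0.17 in the average, adjusted p = 0.517, 0.277 and 0.137 (limma).

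Cdhr3, a cadherin of ciliated cells, read 8.0, 8.07, 8.11 and 8.09 in the air females and 7.94, 7.67, 7.82 and 7.89 in the SHS females, with no overlap. Readings in males were 8.17, 8.37, 8.37 and 8.25 after air and 8.21, 8.07, 7.91 and 8.31 after SHS, with overlap. The difference was -0.24 ± 0.09 in females, adjusted p = 0.155, -0.16 ± 0.09 in males, adjusted p = 0.296, and -0.20 ± 0.06 in the average, adjusted p = 0.0402 (limma). The averaged call was lost without air female 2, 3 or 4, air male 2, 3 or 4, SHS female 2 or 3, or SHS male 2 or 3, at adjusted p from 0.0526 to 0.0888. Cdhr4, its relative, differed by -0.12 in females and 0.15 in males.

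Morn5 and Capsl went the other way. Morn5, a protein with MORN repeats, read 6.88, 6.82, 6.95 and 7.12 in the air females and 7.54, 7.11, 7.26 and 7.24 in the SHS females, where 3 of the 4 SHS lungs lay above every air lung. Males read 6.61, 6.61, 6.74 and 6.65 after air and 7.01, 6.86, 7.09 and 7.20 after SHS, with no overlap. The difference was 0.34 ± 0.09 in females, adjusted p = 0.0564, 0.39 ± 0.09 in males, adjusted p = 0.0239, and 0.36 ± 0.07 in the average, adjusted p = 0.0017, a 1.29-fold difference (limma). The averaged call held with each of the 16 arrays left out.

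Within the sexes the Morn5 call turned on single arrays. In males it was lost without air male 1 or 2 or SHS male 1, 3 or 4, at adjusted p from 0.0524 to 0.0735. In females it was gained without air female 4, SHS female 2, SHS female 4 or SHS male 4, at adjusted p from 0.0399 to 0.0495. Morn5 (chromosome 2, 36049473 to 36079709) lies 134 bases from Ndufa8, a gene of mitochondrial complex I, whose probe set was also higher in the average, 0.20 ± 0.04, adjusted p = 0.00419, with 0.22 in females and 0.18 in males, adjusted p = 0.0526 and 0.0762. Lhx6, 2240 bases away on the other side of Morn5, was not called. It differed by -0.01 in females, 0.34 in males and 0.17 in the average, adjusted p = 0.982, 0.117 and 0.259 (limma).

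Capsl, a calcium-binding protein related to calcyphosin, read 8.45, 8.29, 8.27 and 8.38 in the air females and 8.73, 8.35, 8.68 and 8.30 in the SHS females. The SHS females fell into a high and a low pair of readings, and the groups overlapped. In males it read 8.13, 8.42, 8.43 and 8.19 after air and 8.54, 8.53, 8.59 and 8.62 after SHS, with every SHS male above every air male. The difference was 0.17 ± 0.10 in females, adjusted p = 0.436, 0.28 ± 0.10 in males, adjusted p = 0.112, and 0.22 ± 0.07 in the average, adjusted p = 0.048 (limma). The averaged call was lost without air female 2, 3 or 4, air male 1 or 4, SHS female 1 or 3, or any of the 4 SHS males, at adjusted p from 0.069 to 0.105.

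**Figure D2:**
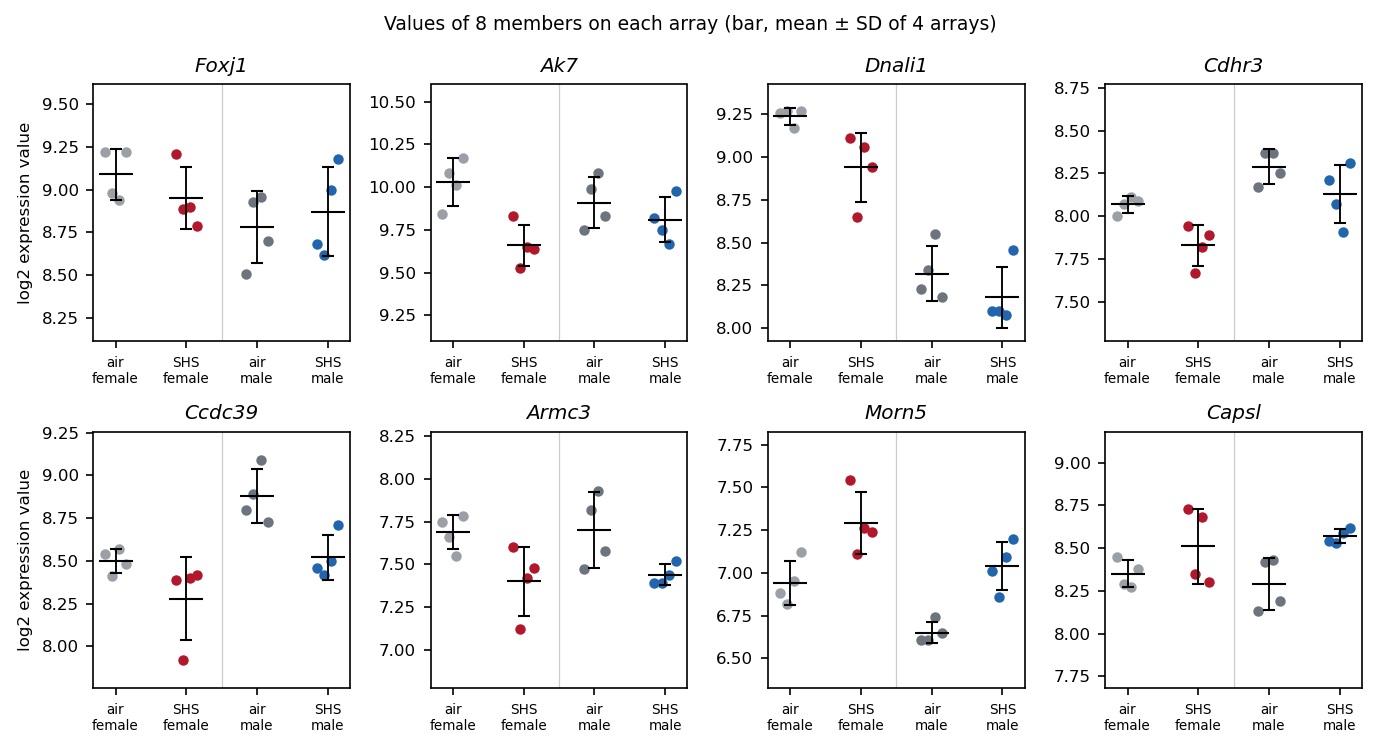
Log2 expression value of 8 motile cilia genes on each of the 16 arrays, with the mean and SD of the 4 arrays per group as bars; the vertical axes span different values, and females and males are set apart by a line. SHS lungs lie below air lungs for Ak7, Dnali1 and Cdhr3 in females and for Ccdc39 in males, and above them for Morn5 and Capsl in males.

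The other genes outside the structural classes were not called. Fam183b and Pifo differed by -0.23 and -0.12 in females and by -0.00 and 0.01 in males. Meig1, a gene known from sperm formation, differed by -0.04 in females and -0.21 in males, where its arrays did not overlap, and Mlf1 by -0.10 and -0.06. Over all 40 genes, 3 had SHS females wholly below air females (2.64% of all probe sets did) and 0 wholly above (5.61%). In males 3 lay wholly below (7.51%) and 2 wholly above (7.87%). No gene was called for a difference of the SHS effect between the sexes, as none of the 45037 probe sets was by limma, with 1 gene (Iqcg) and 3709 probe sets (8.24%) at an unadjusted p under 0.05.

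The 40 genes rose and fell together from lung to lung. With the group means removed, the 780 pairs of genes had a median Pearson r of 0.50 over 16 arrays (quartiles 0.25 to 0.67), and 89.5% of pairs were above 0. Pairs of a motile cilia gene with another gene, 726120 in all, had a median of 0.01 (quartiles -0.23 to 0.24). An r above 0.5 was reached by 50% of the former and 6.62% of the latter. The median was 0.57 over the 8 female arrays and 0.51 over the 8 male arrays, and 0.53 over the 15 arrays without SHS female 4. The points of each pair share lungs, arrays and normalization, and the genes are not independent of each other, so these are descriptions.

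Dynlrb2 had the highest median r with the other 39 genes, 0.73, followed by Fam183b and Pifo at 0.71 and Armc3 at 0.70. In 25 of the 40 genes this median was above 0.5. In 4 it was under 0.2: Kif9 (0.19), Spag6 (0.15), Rfx2 (0.02) and Ttll9 (-0.29). Kif9 and Ttll9 are among the 9 genes with an X-box in their window, which ran from -0.29 (Ttll9) to 0.73 (Dynlrb2). Ccdc39 (0.60), Ak7 (0.63) and Cdhr3 (0.51) varied with the rest. So did Morn5 (0.54) and Capsl (0.57), although their means were higher after SHS, and Foxj1 was at 0.48.

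**Figure D3:**
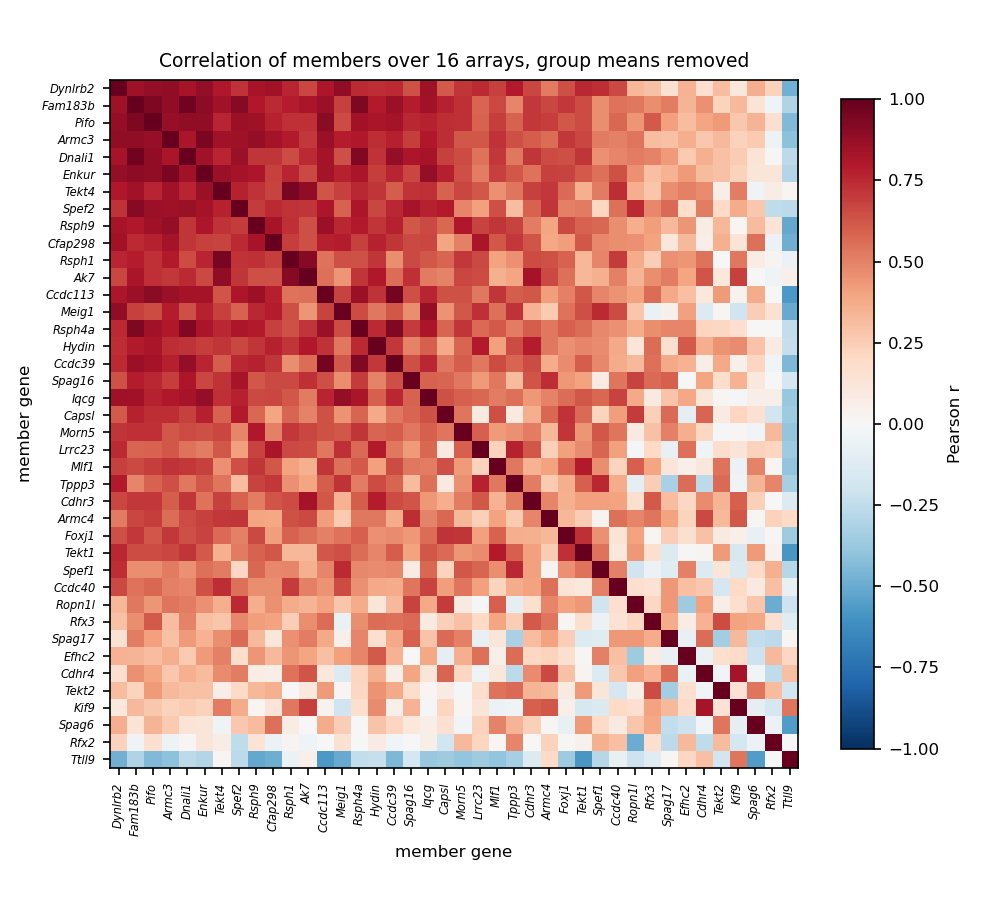
Pearson r of each pair of the 40 motile cilia genes over 16 arrays after removing the 4 group means, red for positive and blue for negative, with genes in order of their median r with the others. A block of red runs from Dynlrb2 (0.73) down; Ttll9 (-0.29) at the end is negative with most genes.

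Because the genes varied together, a median over them describes each lung. Each lung's median deviation from the air mean of its own sex was -0.01, 0.01, -0.08 and 0.08 in the air females and 0.01, -0.33, -0.11 and -0.08 in the SHS females. In males it was -0.10, 0.06, 0.13 and -0.08 after air and -0.06, -0.12, -0.08 and 0.07 after SHS. SHS female 2 was the lowest lung, with 37 of 40 genes below the air mean, and SHS and air lungs overlapped in both sexes. Leaving out 1 array at a time moved the median difference over the genes between -0.20 and -0.07 in females and between -0.08 and -0.01 in males. The mean SD between lungs of a group was 0.10, as large as most of these values.

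Measured against the other 39 genes in the same lung, Morn5 stood out. Its deviation from the air mean exceeded their median by 0.34 to 0.59 in the 8 SHS lungs and lay between -0.13 and 0.10 of it in the 8 air lungs, with no overlap. In 6 of the 8 SHS lungs it had the highest deviation of all 40 genes. Capsl exceeded the others by 0.03 to 0.44 in SHS lungs and by -0.06 to 0.11 in air lungs, and was the highest in 1 SHS lung. Ccdc39 was the lowest of the 40 in 2 of the 8 SHS lungs, and Ak7 in 0. Ak7 lay between -0.30 and -0.01 of the others in SHS lungs and between -0.18 and 0.07 in air lungs, with overlap. These genes were singled out by the comparisons above, so their place beside the others is a description.

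**Figure D4:**
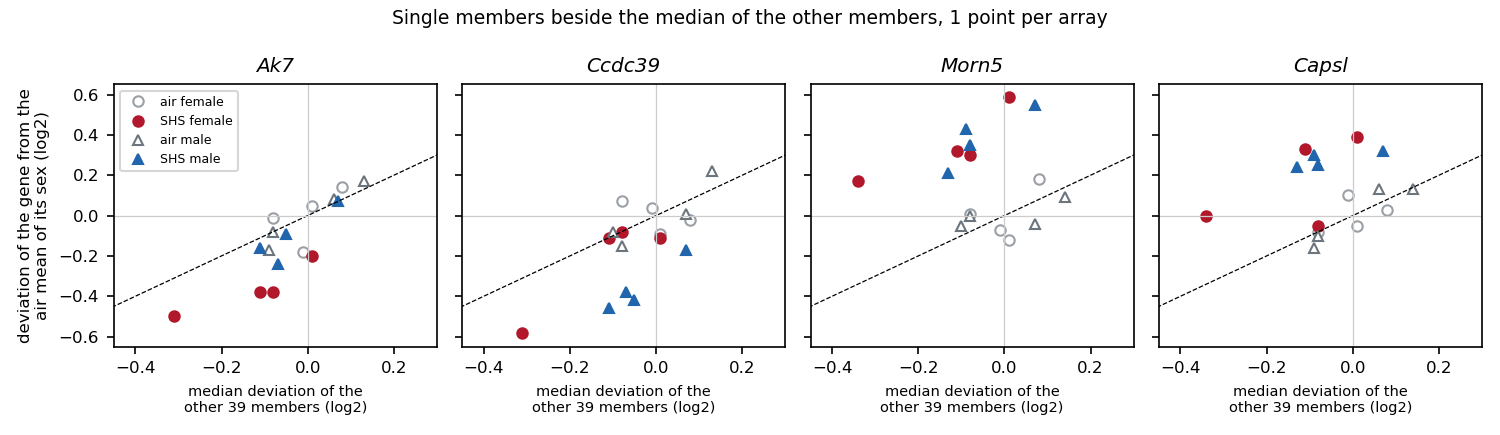
Deviation of Ak7, Ccdc39, Morn5 and Capsl from the air mean of their sex (vertical, log2) beside the median deviation of the other 39 genes in the same lung (horizontal, log2), 1 point per array, circles for females and triangles for males, filled for SHS; the dashed line marks equal deviation. All SHS points of Morn5 lie 0.34 to 0.59 above the line, and the lung farthest left is SHS female 2.

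Other genes of the ciliary machinery were taken from 4 lists; Cdhr3, which is among the 40 and also on one of them, was left out of the list counts. Over all probe sets 2.87% were called in females, 5.18% in males and 10.3% in the average. Of 28 genes of axonemal dyneins and their assembly factors, none was called in females, where 24 of 28 were below 0 with a median of -0.09. The smallest p in females were those of Dnah5, an outer-arm heavy chain (-0.37, adjusted p = 0.097), and Dnah12, an inner-arm heavy chain (-0.25, adjusted p = 0.18). In males 1 was called, Dnaaf2, an assembly factor, at 0.29 ± 0.07, adjusted p = 0.0181 (limma), and the median was -0.04. In the average Dnaaf2 was higher, at 0.19 ± 0.05, adjusted p = 0.0184, and Dnah12 was lower at -0.25 ± 0.07, adjusted p = 0.0214. Of 46 other structural genes of the motile axoneme, 33 were below 0 in females (median -0.13) and 26 in males (median -0.03). Odf3b was lower in females, at -0.28 ± 0.07, adjusted p = 0.037. In males Nme7, a protein of doublets, was higher at 0.43 ± 0.11, adjusted p = 0.0339, and Tubb4b, a beta-tubulin of cilia that other cells also make, at 0.36 ± 0.08, adjusted p = 0.0106. In the average these 2 were higher (0.36 and 0.22, adjusted p = 0.00797 and 0.0124), while Cfap43 (-0.31), Cfap57 (-0.25) and Cfap157 (-0.28) were lower, adjusted p = 0.00758, 0.00811 and 0.0482.

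Genes of intraflagellar transport, the cargo system along microtubules that primary cilia share, had 6 calls in the average of the sexes, all lower. Of 36 genes, none was called in females, where the median was -0.05 and the smallest p were those of Ift81 (-0.21, adjusted p = 0.13) and Dync2h1, a motor heavy chain (-0.18, adjusted p = 0.162). In males Ift122 was lower at -0.39 ± 0.09, adjusted p = 0.0147, and Bbs2, a subunit of the BBSome, at -0.37 ± 0.09, adjusted p = 0.0249, with a median of -0.10. In the average 6 were lower and none higher: Bbs2 (-0.26), Ift122 (-0.25), Ift81 (-0.20), Cluap1 (-0.17), Dync2li1 (-0.17) and Dync2h1 (-0.16), with adjusted p from 0.0138 for Ift81 to 0.0391 for Dync2li1. In that comparison 10.3% of all probe sets were called, 3.67% as lower, and 16.7% of this list, all as lower.

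Of 26 regulators of multiciliation, 15 were below 0 in females and 13 in males, with medians of -0.06 and -0.01. The calls were 2 in females (7.69%), 3 in males (11.5%) and 6 in the average (23.1%), against 2.87%, 5.18% and 10.3% of all probe sets. Plk4 and Stil, which drive centriole duplication in multiciliating and in dividing cells alike, were higher: Plk4 by 0.61 ± 0.07 in females and 0.30 ± 0.07 in males, adjusted p = 0.000227 and 0.0169. Stil was higher by 0.77 ± 0.10 in females and 0.59 ± 0.10 in males, adjusted p = 0.000464 and 0.00281. Tfdp1, a partner of E2F factors, was higher in males by 0.31 ± 0.09, adjusted p = 0.0461. In the average Plk4, Stil, Tfdp1 (0.25, adjusted p = 0.0157) and Deup1 (0.39, adjusted p = 0.0319), which builds centrioles in multiciliated cells, were higher. Stk36 (-0.27, adjusted p = 0.0223) and the Notch ligand Jag1 (-0.24, adjusted p = 0.03) were lower.

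Markers of other cells of the lung differed between the same groups, and their part in the differences of the cilia genes was not tested. Of 12 club cell markers, Scgb3a2, a secretoglobin, and Pon1 were lower in both sexes, by -0.84 ± 0.16 and -1.01 ± 0.24 in females and -0.65 ± 0.16 and -1.07 ± 0.24 in males (adjusted p = 0.00692, 0.0284, 0.0251 and 0.0149). These 2 calls were 16.7% of the list in each sex, against 0.517% of all probe sets called lower in females and 2.11% in males. In females 10 of the 12 were below 0 and 2 above (median -0.19), and in males 8 below and 4 above (median -0.10). In the average 5 of the 12 were lower (41.7%, against 3.67% of all probe sets), with a median of -0.18; the log2 of the summed level ran from 16.79 to 17.09 in the air females, 16.55 to 16.86 in the SHS females, 16.73 to 16.82 in the air males and 16.51 to 16.76 in the SHS males. Of 9 goblet cell markers, 3 were higher in males, where 3.07% of all probe sets were (Agr2 by 0.96 ± 0.22, Muc5ac by 0.59 ± 0.15 and Foxa3 by 0.49 ± 0.12, adjusted p = 0.0185, 0.0332 and 0.026) and none in females; their summed level ran from 14.28 to 14.69 in the air males, 14.66 to 14.84 in the SHS males, 14.65 to 14.87 in the air females and 14.60 to 14.99 in the SHS females. Of 8 leukocyte markers Cd53 was higher in females, by 0.45 ± 0.12, adjusted p = 0.0451, and the summed level ran from 14.91 to 15.10 in the air females and 14.89 to 15.45 in the SHS females, and from 14.93 to 15.13 and 14.85 to 15.23 in the males.

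In the average, where 3.67% of all probe sets were called lower and 6.65% higher, 3 of 8 alveolar type 2 markers (37.5%) were lower and 3 of 8 smooth muscle markers (37.5%) higher, while 0 of 8 alveolar type 1 markers was called. Basal cell markers, 1 of 8 above that middle level of 7.02, and neuroendocrine markers, 0 of 5 above it, had 1 and 0 calls in the average. Cartilage markers of the large airways lay below the median level in all 12 cases, with Sox9 higher in males by 0.76 ± 0.19, adjusted p = 0.0308. SHS female 4 and SHS male 4 stood apart from the other SHS lungs of their sex in markers of other cells: the median deviation of the club cell list was -0.04 and 0.06 in them against -0.35 to -0.23 and -0.16 to -0.13 in the others. That of the leukocyte list was -0.10 and -0.21 against 0.17 to 0.39 and 0.10 to 0.18. Without both, 7 of the 40 cilia genes were called lower in the average (Ccdc39, Cdhr3, Ak7, Dnali1, Armc3, Tekt1 and Tppp3) and 2 higher. Averaged calls over all 45037 probe sets rose in that fit, to 3309 lower and 4211 higher, from 1655 and 2997 with all arrays. Morn5 in males had an adjusted p of 0.0547 without both arrays.

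**Figure D5:**
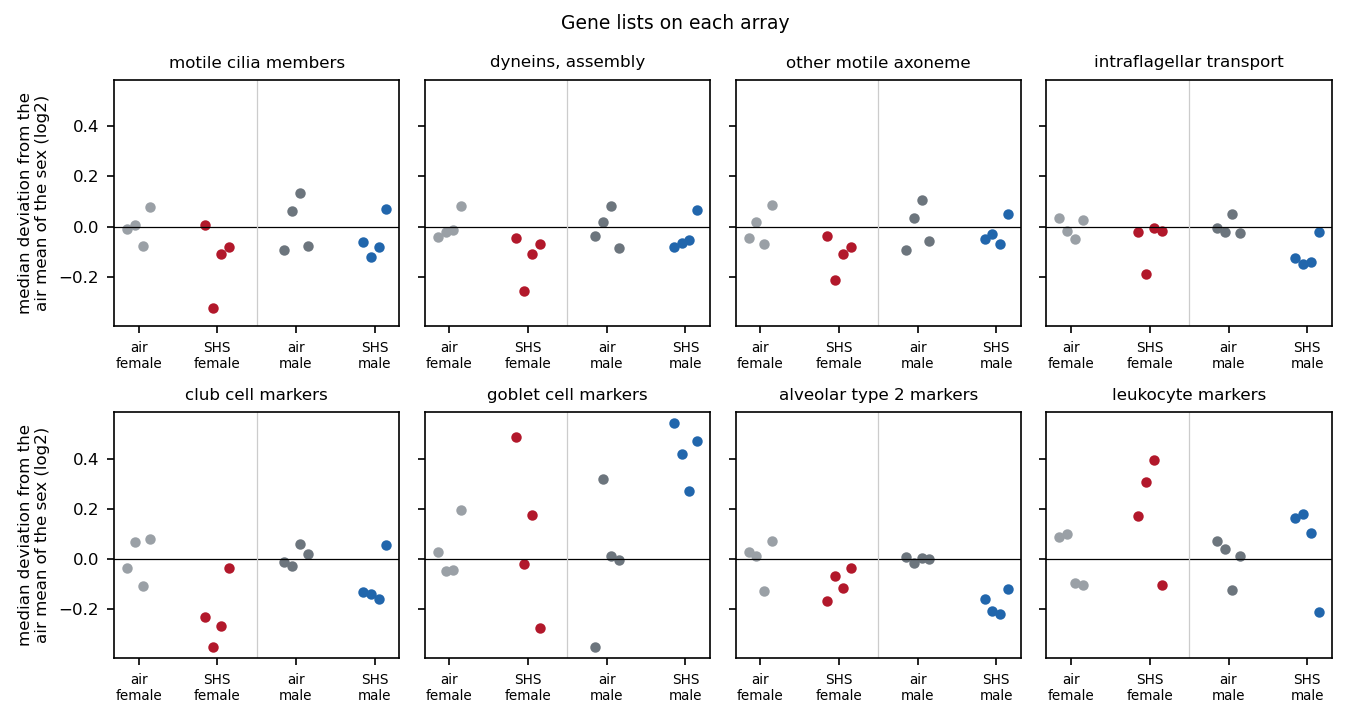
Median deviation of 8 gene lists from the air mean of the sex (log2) on each of the 16 arrays, 1 point per array, in the 4 groups. The motile cilia genes, dyneins, other motile axoneme, intraflagellar transport and club cell markers all have their lowest point in SHS female 2. The goblet cell markers lie above 0 in the 4 SHS males, and the club cell markers lie below 0 except in SHS male 4 among the SHS lungs.

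RNA quality was compared through control probe sets at the 3′ and 5′ ends of Gapdh and Actb. The 3′ minus 5′ difference of Gapdh ran from -0.48 to -0.41 in the air females and -0.52 to -0.39 in the SHS females, and from 0.25 to 0.36 and 0.14 to 0.52 in the males. That of Actb ran from 0.17 to 0.24 and 0.16 to 0.19 in the females and from 1.13 to 1.19 and 1.0 to 1.24 in the males. SHS and air ranges overlapped within each sex, and the sexes lay apart. No level is compared between the sexes. Whether this gap bears on the difference of the SHS effect between them was not tested. Array medians ran from 7.0 to 7.04.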

How the data were processed

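RNA of 16 left lungs, 4 per group, was hybridized to Affymetrix Mouse 430 2.0 arrays, per the labels. The authors deposited 1 log2 value per probe set and array, normalized between arrays by a method that is not stated in the labels; limma is listed, with neither version nor role, in the submitters' processing notes. The log2 base was taken from the range of the values, 2.58 to 15.2. Values were used as deposited, and raw intensities were not analysed here. After 64 control probe sets were left out of 45101 features, 45037 were tested, of which 34945 had 1 symbol, 932 several and 9160 none. The number of arrays, 4 per group, limits the precision.

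The 4 group means were fitted with limma 3.58.1 in R 4.3.3 (with data.table at version 1.17.8), with 12 residual and 5.56 prior degrees of freedom. SHS minus air in females, in males, averaged, and females minus males in that effect were tested two-sided, with Benjamini-Hochberg adjustment over all 45037 probe sets and calls at adjusted p under 0.05. Errors of differences are standard errors. The script was tested on simulated data. Gene names came from the platform annotation, and positions and promoters from RefSeq, GRCm38.p6. Figures used matplotlib 3.10.9 in Python 3.11.15 with pandas 2.3.3.

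Given array by array were Foxj1, genes called in any exposure comparison, and in each sex the 4 genes with the smallest p in each direction, 14 in all. Of each list of other ciliary genes, called genes were named, up to 4 a direction with the largest difference, or with none called the 2 with the smallest p. Dync2li1, marker genes, further probe sets, neighbours and the Tppp3 fit without an array were named after their values were seen. The members and lists were chosen with earlier results of these data known, and the grouping by role was made after the values were seen. Alternatives were quantile normalization, median centring, a filter on probe sets under the 40th percentile, the replicate number as a block, only the groups compared, array weights, a trended robust prior, adjusted p under 0.10, each array left out, both SHS arrays numbered 4 left out, and the mean of all probe sets of a gene. The labels do not say whether replicate numbers pair the arrays. Same-numbered arrays correlated between -0.08 and 0.27 and 2 of 8 pairs were over 0.1, which is too few pairs to settle it.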

Additional observations from a re-analysis of the deposited data

Results flagged for a closer look

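Of 60 groups of 4 readings, those of the motile cilia genes given array by array and of the medians over them, 4 held an array far from its group by Dixon's test at the 95% level, about as many as the 1 in 20 groups that chance gives. Ccdc39 read 7.92 in SHS female 2, while the other SHS females read 8.39 to 8.42. Dnali1 read 9.17 in air female 3, while the other air females read 9.26 to 9.27. Dnali1 also read 8.46 in SHS male 4, against 8.08 to 8.10 in the other SHS males. Iqcg read 7.02 in air male 3, against 6.79 to 6.82 in the other air males.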

How the results depend on the processing

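The median difference over the motile cilia genes kept its sign in every alternative in females, in males and in the average, from -0.20 to -0.07, -0.08 to -0.01 and -0.12 to -0.04 with 1 array left out. No called difference changed sign. The uncalled differences between the sexes did in some alternatives: Armc3 ran from -0.10 to 0.08 and Morn5 from -0.12 to 0.07, and Capsl reached 0.02 with array weights. Counts of called genes moved more, with causes not tested. Calls over all probe sets moved too. They follow each list in its order, with the main fit first, and are out of 45037 unless stated. Lower in females (1 gene): 0 with the replicate block, 0 with only the groups compared, 2 without both SHS arrays numbered 4, and 0 to 2 with 1 array left out. All probe sets: 233, then 307, 47, 1322 and 79 to 1174. Higher in females (0): 1 without dim probe sets, 1 with the block, 2 with array weights, 1 at adjusted p under 0.10, 1 without both arrays, and 0 to 1 with 1 array left out. All probe sets: 1061, then 1459 of 27022, 1230, 2785, 1780, 2632 and 578 to 2430. Lower in males (0): 1, Ccdc39, without dim probe sets, with the block, array weights, the trended robust prior, adjusted p under 0.10, both arrays left out and the mean of all probe sets of a gene, and 0 to 1 with 1 array left out. All probe sets: 950, then 1143 of 27022, 1030, 2036, 1147, 1788, 1447, 593 of 28285 and 375 to 1382. Higher in males (1): 0 without both arrays and 0 to 1 with 1 array left out. All probe sets: 1382, then 1868 and 698 to 1771. Lower in the average (4): 6 with quantile normalization, without dim probe sets and with array weights (Tekt1 and Dnali1 added), 3 with the block, 8 at adjusted p under 0.10, 7 without both arrays, and 1 to 6 with 1 array left out. All probe sets: 1655, then 2155, 1923 of 27022, 3293, 1883, 2798, 3309 and 1150 to 3048. Higher in the average (2): 1 with the block and 1 to 2 with 1 array left out. All probe sets: 2997, then 3178 and 2364 to 3935. Interaction counts stayed at 0.

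Whether the replicate numbers pair the arrays is not known. Of the 8 air arrays, 4 correlated best with their own number, and the block is no test of pairing. With the replicate block the adjusted p was 0.0585 for Ak7 in females, 0.0386 for Morn5 in females, 0.0488 for Ccdc39 in males, and 0.0522 for Cdhr3 and 0.0565 for Capsl in the average. Readings near the background, such as Spag6, limit what can be seen for dim probe sets.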

Other observations

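Neighbours on the chromosome of the other called genes were not called in the average: Gskip and Papola beside Ak7 differed by 0.04 and 0.10, Pip4k2a and Msrb2 beside Armc3 by 0.00 and -0.00, Sypl and Atxn7l1 beside Cdhr3 by 0.02 and 0.00, and Ugt3a2 and Il7r beside Capsl by -0.17 and -0.14, with adjusted p of 0.185 or more (limma). Of the 40 genes, 14 had more than 1 probe set. Of the 23 further probe sets, 19 lay below the median level. Among these 23, 0 were called in females, 3 in males and 2 in the average. The shares over all probe sets were 2.87%, 5.18% and 10.3%.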
